A study of Mus musculus with 8 samples.

Results

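The platelet-derived growth factor (PDGF) genes were followed in mouse embryos with 1 functional copy of Tbx5, at E9.5, in the tissue known as the posterior second heart field (pSHF). The genes were the ligands Pdgfa, Pdgfb, Pdgfc and Pdgfd and the receptors Pdgfra and Pdgfrb, 6 of the 27827 gene names on the array. Every non-control spot carrying one of these names was used, which gave 21 of 43379 spots and 12 of 41174 probes. The groups were Tbx5-/+ (n = 4) and wild-type (n = 4), both on a mixed background and both from females given gonadotropins before mating. No other allele is named in the labels, so the single difference they give between the groups is the loss of 1 Tbx5 copy in every cell. The pSHF was cut by hand from a thoracic section after the neural tube had been removed. The series design speaks of RNA pools, whereas the titles carry embryo numbers (1, 5, 6 and 7 in each group), and the number of embryos in a pool is not given in the sources used here. Samples are named below by genotype and that number.

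PDGF ligands are secreted dimers that bind receptor tyrosine kinases on neighboring cells. PDGF-A and PDGF-C act mainly through the alpha receptor, encoded by Pdgfra, and PDGF-B and PDGF-D through the beta receptor, encoded by Pdgfrb. In many embryonic organs epithelium makes PDGF-A and the mesenchyme beside it carries the alpha receptor, whereas endothelium makes PDGF-B, which recruits pericytes and smooth muscle that carry the beta receptor. The comparison asked whether the transcripts of these ligands and receptors differed between Tbx5-/+ and wild-type pSHF.

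Of the probes, 3 are shown because the results below turn on them. The Pdgfa probe had the largest difference of the 9 PDGF probes tested, the Pdgfd probe is from the single ligand gene whose probes lay higher in Tbx5-/+, and the Pdgfra probe is the one of its 2 that was near background. Each is 60 bases long and is given 5′ to 3′ on the transcript strand with its mm9 position from the array files. No gene annotation of that build was used here, so exon or UTR positions are not stated.

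Pdgfa A_51_P370099, chr5:139455132-139455191, minus strand, from base 670 of the transcript: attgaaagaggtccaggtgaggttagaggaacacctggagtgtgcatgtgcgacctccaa
Pdgfd A_52_P264790, chr9:6376926-6376985, plus strand, from base 1201 of the transcript: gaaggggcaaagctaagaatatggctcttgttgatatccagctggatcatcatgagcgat
Pdgfra A_52_P264283, chr5:75559613-75559672, plus strand, from base 281 of the transcript: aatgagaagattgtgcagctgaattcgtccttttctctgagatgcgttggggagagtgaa

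Values are log2 signals after variance stabilizing normalization (VSN), which brings the arrays to a common scale, and a difference is Tbx5-/+ minus wild-type. A probe was tested when the scanner software marked it well above background throughout 1 group or both. Of 20028 probes tested, 0 passed a limma adjusted p of 0.05 (smallest 0.0921), a background of 0%, and 4386 (21.9%) had an unadjusted p under 0.05. Of these 84.6% were lower in Tbx5-/+, a share that depended on the scaling and was 29.0% after each array was centered on its median, 35.6% after scaling to the 75th percentile and 50.2% after quantile normalization. The median difference of all probes tested was -0.19. The share of spots well above background was 45.0 to 52.8% in Tbx5-/+ and 50.9 to 63.6% in wild-type. By median spot signal before scaling, Tbx5-/+ 5, 6 and 7 were dimmer than every wild-type array, at 90.0 to 94.3 against 137.3 to 163.5. Tbx5-/+ 1, at 154.6, was not. Tbx5-/+ 1 stood apart from the other arrays of its group, with an estimated array weight of 0.170 on a scale that reached 5.43, so the PDGF results are also given without it. The mutated gene Tbx5 itself read 9.01, 9.73, 9.16 and 8.62 in Tbx5-/+ 1, 5, 6 and 7 and 11.47, 11.56, 10.42 and 11.54 in wild-type 1, 5, 6 and 7. Its difference was -2.12 (limma adjusted p = 0.0921), with no overlap between the groups, and without Tbx5-/+ 1 it was -2.08 (0.0118). The other tested Tbx5 probe, A_51_P469338, was at -0.15 (limma adjusted p = 0.789), so the 2 probes disagreed, and the sources used here do not place either against the deleted part of the gene. In whole tissue, fewer cells that carry a transcript and less transcript per cell cannot be told apart.

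Of the 12 PDGF probes, 9 were tested, at least 1 for each gene, and 0 of them passed an adjusted p of 0.05 or an unadjusted p of 0.05. Their limma adjusted p ran from 0.230 to 0.927. Differences were below 0 for 7 probes and above 0 for 2, both of Pdgfd, though after centering each array on its median the brighter probe of Pdgfb, the second probe of Pdgfc and that of Pdgfrb also lay above 0. Of the 9, 4 lay below the median of all probes. The median of the 9 was -0.19, as it was over all probes tested. None of the 9 separated the groups, where 9.72% of all probes had no overlap between them.

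**Figure D1:**
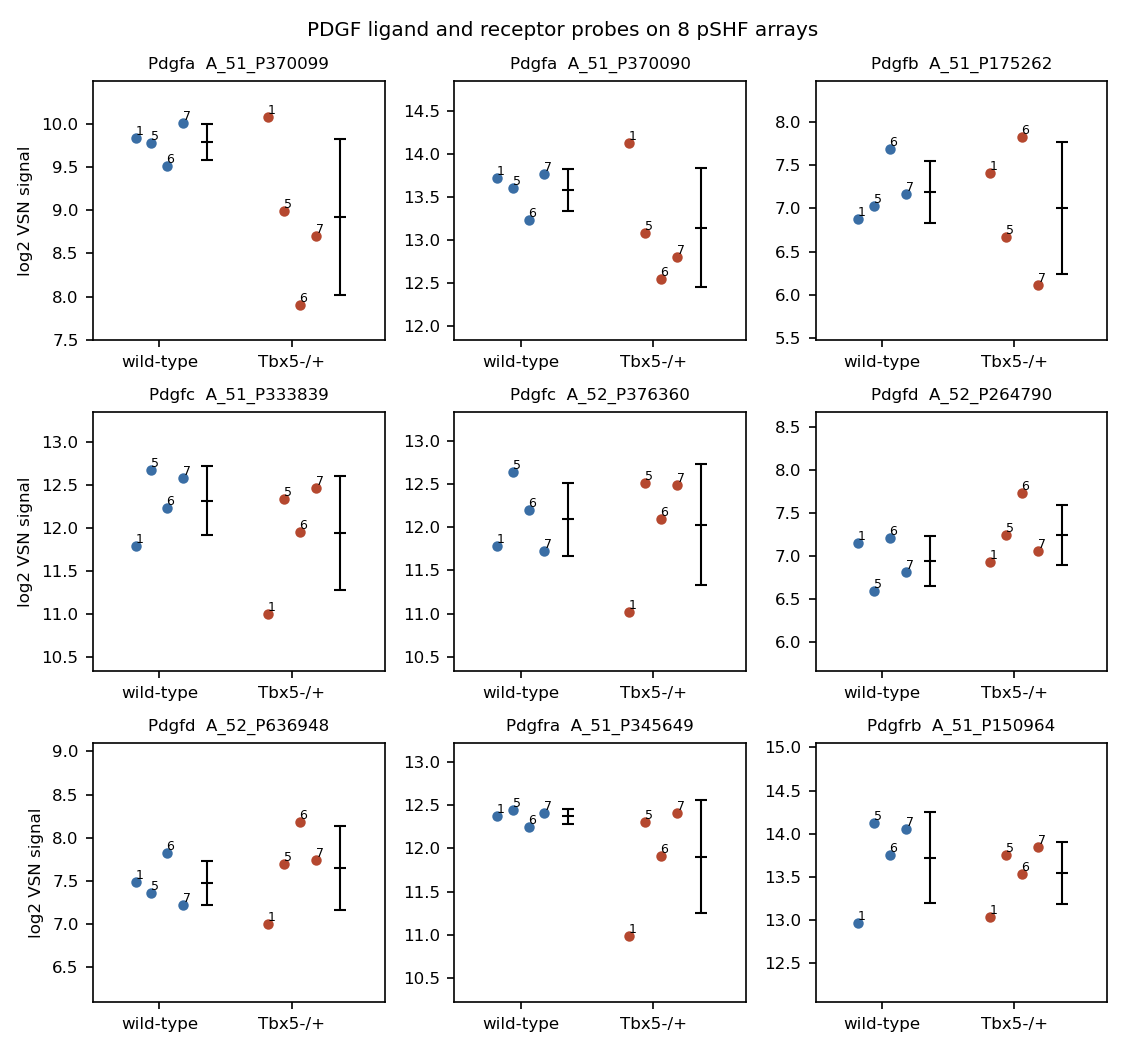
Log2 VSN signal (y axis, each panel spanning 3 log2 units) of the 9 tested PDGF probes on 4 wild-type and 4 Tbx5-/+ arrays (x axis); points carry the embryo number, and the bar beside each group is its mean ± SD. Tbx5-/+ 1 is the highest array for both Pdgfa probes, at 10.08 and 14.12, and the lowest for Pdgfra, at 10.98.

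Pdgfa, the ligand of the alpha receptor made by epithelia, had the single PDGF probe with the largest difference on the VSN scale. On the brightest probe of each gene Pdgfra (-0.47) and Pdgfa (-0.44) were close in size, and after centering each array on its median the first Pdgfd probe (0.62) exceeded the first Pdgfa probe (-0.55). On the probe shown above (A_51_P370099) the wild-type arrays 1, 5, 6 and 7 read 9.84, 9.78, 9.52 and 10.01, and the Tbx5-/+ arrays read 10.08, 8.99, 7.90 and 8.70. On the probe nearer the 3′ end (A_51_P370090, chr5:139453029-139453088, from base 855) wild-type read 13.72, 13.60, 13.23 and 13.76, and Tbx5-/+ read 14.12, 13.08, 12.55 and 12.80. Both probes gave the same picture: Tbx5-/+ 5, 6 and 7 were below every wild-type array and Tbx5-/+ 1 was above every one of them. The difference was -0.87 (SE 0.39, 95% interval -1.75 to 0.01, limma adjusted p = 0.230) on the first probe, a signal 1.83-fold lower in Tbx5-/+. On the second it was -0.44 (SE 0.32, 95% interval -1.16 to 0.29, limma adjusted p = 0.414), which shrank to -0.06 after scaling to the 75th percentile and to -0.12 after centering.

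Tbx5-/+ 1 decided whether Pdgfa passed. Without it the differences were -1.26 (limma adjusted p = 0.0223) and -0.77 (0.0377), and both probes were called lower, 2 of the 9 PDGF probes. In that fit 19.2% of all probes were called and 12.2% were called lower. The SD of the first probe over all 4 arrays was 0.90 in Tbx5-/+ and 0.21 in wild-type. With the embryo number as a block, neither Pdgfa probe passed (adjusted p = 0.0889 and 0.233), and 11.1% of all probes were called. With arrays weighted by their estimated quality both probes passed (adjusted p = 0.00105 and 0.00378), where 49.9% of all probes were called, and by SAM, the test named in the study's methods, the first alone did (q = 0.0309), where 38.2% of 9149 probes were called. Within embryo number 1 the first probe was 0.25 higher in Tbx5-/+, and within numbers 5, 6 and 7 it was lower, at -0.79, -1.62 and -1.32.

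Markers of foregut endoderm and epithelium, the tissue next to the pSHF in the dissection, were read beside Pdgfa. All 10 were tested and none was called or separated the groups. Without Tbx5-/+ 1, 1 was called (Sox2, lower), where 12.2% of all probes were called lower. The summed signal of the 10 markers lay between 16.65 and 16.99 in Tbx5-/+ and between 16.38 and 17.55 in wild-type on the log2 scale, and that of Tbx5-/+ 1 (16.95) was within the range of its group. Against the other Tbx5-/+ arrays, Tbx5-/+ 1 was the highest for 5 of the 10 markers, the lowest for 4 and between them for 1. It was high for the cadherin Cdh1 (11.32, against at most 10.22), and for Sox2 (11.04, against at most 8.60), a transcription factor of the foregut. It was low for Foxa2 (12.26, against at least 13.40), a transcription factor of endoderm, and for the ligand Shh (9.37, against at least 10.23). The list thus did not move one way on this array, and its part in the Pdgfa reading was not tested.

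**Figure D2:**
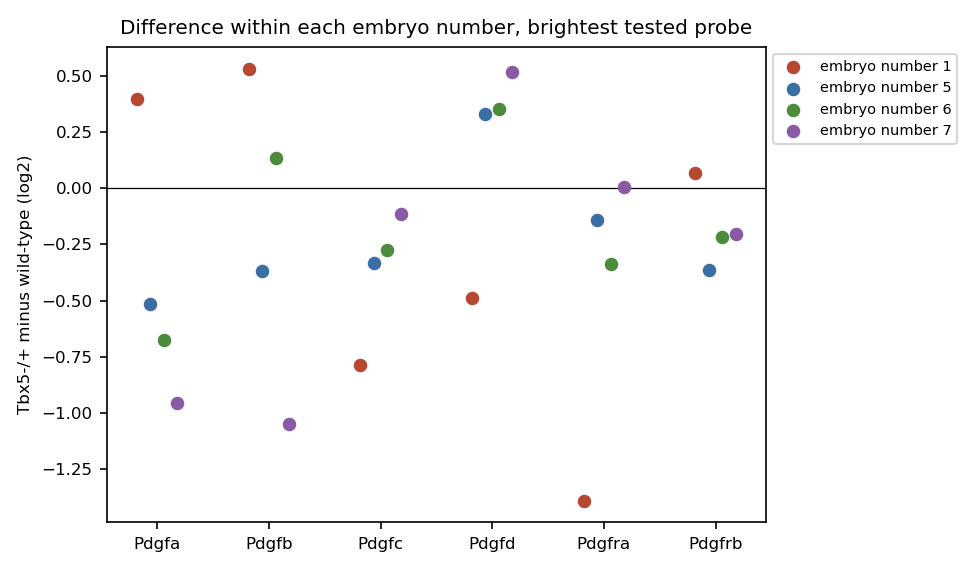
Tbx5-/+ minus wild-type on the log2 scale (y axis) within each embryo number (color) for the brightest tested probe of each PDGF gene (x axis). Number 1 lies apart for Pdgfa (0.40, against -0.52 to -0.96) and for Pdgfra (-1.39, against -0.34 to 0.01).

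Pdgfra, the alpha receptor of mesenchyme, had the most spots of the family, since its probe near the 3′ end (A_51_P345649, chr5:75593888-75593947, from base 6211) was printed in 10 spots, of which 7 to 10 were kept on an array. These varied by 1.01 to 2.90% (coefficient of variation) within an array. The wild-type arrays 1, 5, 6 and 7 read 12.38, 12.45, 12.25 and 12.41, and the Tbx5-/+ arrays read 10.98, 12.31, 11.92 and 12.42. Wild-type was the tightest group of any PDGF probe, with an SD of 0.08, whereas in Tbx5-/+ number 1 was low, 6 was a little low and 5 and 7 fell within the wild-type range.

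The overlap appeared with the scaling between arrays. Before it, the median of the background-subtracted spot signals was 7589, 7595, 5909 and 7054 in wild-type 1, 5, 6 and 7, and 2676, 3807, 1916 and 3705 in Tbx5-/+. Over all spots of an array, Tbx5-/+ 5, 6 and 7 were dimmer than wild-type. The median spot signal of Tbx5-/+ 1 (154.6) was within the wild-type range (137.3 to 163.5). The difference, -0.47 on the VSN scale, was -0.36 after quantile normalization, -0.14 after centering each array on its median and -0.11 after scaling to the 75th percentile, so its size depended on the scaling. It passed under none of these.

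On the VSN scale the Pdgfra difference had an SE of 0.30 (95% interval -1.14 to 0.21, limma adjusted p = 0.352). Without Tbx5-/+ 1 it was -0.16 (limma adjusted p = 0.514), a move of more than 1.5 times, so most of the difference rested on that array. The interval left room for a change in either direction, and a p above the threshold does not show that the receptor was equal in both groups.

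The markers of splanchnic mesenchyme, which carries the alpha receptor, were also low on that array. Their summed signal was 14.39 in Tbx5-/+ 1, 15.43, 15.65 and 15.57 in the others, and 14.96 to 15.76 in wild-type. Foxf2 read 9.96, Wnt2 12.38 and Tcf21 9.86 there, each the lowest of the 8 arrays. Over the whole list 10 of 10 markers were tested, 0 were called, and 2 separated the groups (Foxf1a at -1.59 and Barx1 at -1.84, both lower), where 8.98% of all probes separated in that direction. Without Tbx5-/+ 1 these 2 were called lower, where 12.2% of all probes were called lower. Foxf1a was well above background in 3 Tbx5-/+ and 4 wild-type arrays, so it entered the test through wild-type alone. The part of tissue makeup in the Pdgfra reading was not tested.

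The other Pdgfra probe, shown above, read 5.68, 6.06, 5.48 and 5.75 in Tbx5-/+ and 6.16, 5.67, 5.86 and 6.23 in wild-type. The scanner software marked it well above background in 0 Tbx5-/+ and 2 wild-type arrays, so it was not tested and gave no direction. It lies 5930 bases upstream of the tested probe.

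The RefSeq promoter of Pdgfra (GRCm38.p6, a window of 300 bases across the start site) held 1 copy of the T-box core AGGTGT, on the reverse strand from base -213. The 22 bases around it are shown with that core in capitals, as it reads on the forward strand. The same 6 letters, searched on both strands, were in 13.7% of 32851 promoters, and of 5 promoters found for Pdgfa (2), Pdgfc, Pdgfd and Pdgfra they were in this one alone.

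Pdgfra promoter, chr5:75152030-75152051 (GRCm38.p6): gaacgtcaACACCTcccccttc

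The longer T-box site AGGTGTGG, which contains that core, was in 0 of the 5 promoters and 2.27% of all. The Gli core GACCACCCA was in 0 of the 5 and 0.253% of all. A match is a run of letters and not a measured binding site.

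Pdgfc, the second ligand of the alpha receptor, is expressed in many embryonic epithelia. Its probe A_51_P333839 (chr3:81017419-81017478) read 11.79, 12.67, 12.23 and 12.58 in wild-type 1, 5, 6 and 7, and 11.002, 12.34, 11.96 and 12.46 in Tbx5-/+. Tbx5-/+ was lower within all 4 embryo numbers, by amounts from -0.79 (number 1) to -0.11 (number 7), yet the groups overlapped widely. The difference was -0.38 (SE 0.34, limma adjusted p = 0.500), and without Tbx5-/+ 1 it was -0.06 (0.861).

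The second Pdgfc probe, A_52_P376360 (chr3:81017572-81017631), starts 153 bases further on. It read 11.78, 12.65, 12.20 and 11.73 in wild-type and 11.01, 12.51, 12.10 and 12.49 in Tbx5-/+. Its difference was -0.06 (SE 0.36, limma adjusted p = 0.927), and without Tbx5-/+ 1 it turned to 0.28 (0.427). The 2 probes ran together on 7 arrays and parted on wild-type 7, where the second was 0.85 lower than the first. The remaining Pdgfc probe, A_52_P408629, was well above background on 0 arrays and was not tested.

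Pdgfb, the endothelial ligand of the beta receptor, was dim. Its brighter probe, A_51_P175262 (chr15:79827138-79827197), read 6.87, 7.03, 7.69 and 7.16 in wild-type 1, 5, 6 and 7, and 7.41, 6.66, 7.83 and 6.11 in Tbx5-/+. It was well above background on 4 wild-type and 2 Tbx5-/+ arrays, and the values of the groups were interleaved. The difference was -0.19 (SE 0.36, limma adjusted p = 0.767), without Tbx5-/+ 1 it was -0.32 (0.549), and without Tbx5-/+ 7 it turned to 0.11 (0.868). The other probe, A_52_P618427, is only 18.3% G and C, cleared background in 1 Tbx5-/+ and 3 wild-type arrays and was not tested.

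Pdgfd, the second ligand of the beta receptor, was the single gene with tested probes above 0. The probe shown above read 7.15, 6.59, 7.20 and 6.81 in wild-type 1, 5, 6 and 7, and 6.94, 7.25, 7.73 and 7.06 in Tbx5-/+. A_52_P636948 (chr9:6378717-6378776) read 7.49, 7.36, 7.83 and 7.22 in wild-type and 7.002, 7.69, 8.18 and 7.74 in Tbx5-/+. On both probes Tbx5-/+ was higher within numbers 5, 6 and 7 and lower within number 1. The differences were 0.30 (SE 0.24, limma adjusted p = 0.440) and 0.18 (SE 0.27, 0.691), and without Tbx5-/+ 1 they were 0.40 (0.214) and 0.40 (0.180).

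Pdgfrb, the beta receptor of pericytes and other mesenchyme, was read by 1 probe (A_51_P150964). Wild-type 1, 5, 6 and 7 read 12.97, 14.12, 13.75 and 14.05, and Tbx5-/+ read 13.04, 13.76, 13.54 and 13.85. Here both arrays of number 1 were low, so the pair for number 1 differed by only 0.07, and the other pairs by -0.36, -0.22 and -0.20. The difference was -0.18 (SE 0.30, 95% interval -0.84 to 0.48, limma adjusted p = 0.724), and without Tbx5-/+ 1 it was -0.01 (0.985). Markers of pericytes and smooth muscle were all tested (10 of 10) with 0 called, and 1 separated the groups (Des, lower), where 8.98% of all probes separated in that direction. Without Tbx5-/+ 1, 1 was called (Tagln, higher), where 19.2% of all probes were called in either direction. The summed signal of these markers was 16.70 to 17.49 in Tbx5-/+ and 16.90 to 17.24 in wild-type.

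**Figure D3:**
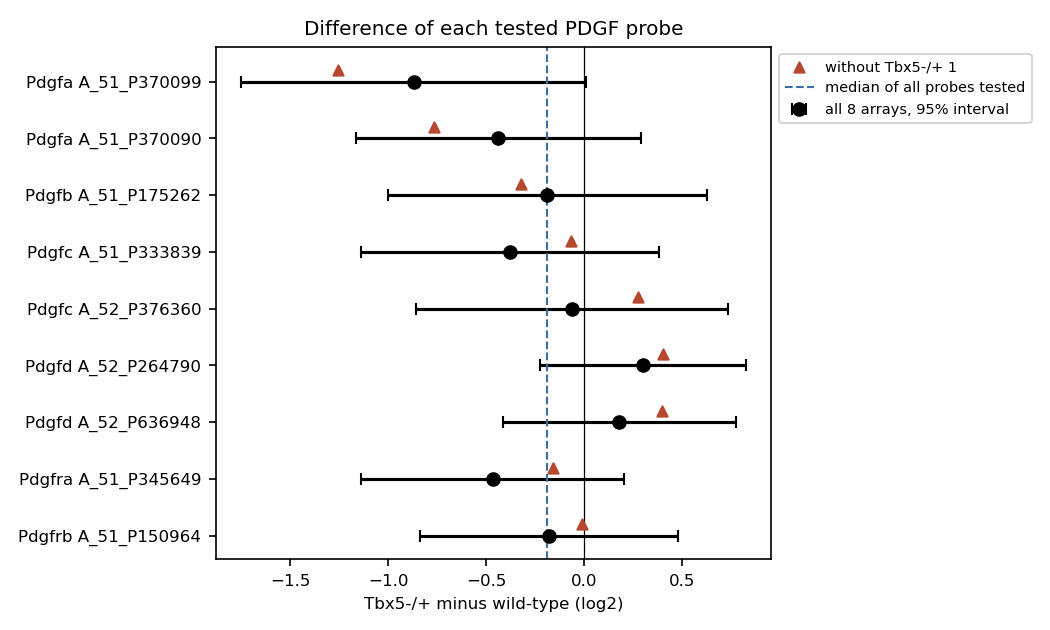
Tbx5-/+ minus wild-type on the log2 scale (x axis) for each tested PDGF probe (y axis), as black points with 95% limma intervals from all 8 arrays and red triangles without Tbx5-/+ 1; the dashed line is the median of all probes tested, -0.19. Every interval crosses 0, and without Tbx5-/+ 1 the Pdgfa points move down to -1.26 and -0.77 while those of Pdgfra and Pdgfrb move toward 0.

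Ligand and receptor were next set against each other within an array, since a brightness shift common to an array cancels there. The offset between a pair of probes has no meaning, and only its change between groups was read. Pdgfra minus Pdgfa, the alpha axis, was -1.35, -1.15, -0.98 and -1.35 in wild-type 1, 5, 6 and 7, and -3.14, -0.77, -0.64 and -0.39 in Tbx5-/+. In Tbx5-/+ 5, 6 and 7 the receptor stood higher relative to the ligand than on any wild-type array, and in Tbx5-/+ 1 it stood far lower. The mean change was -0.03 (exact two-sided permutation p = 1), and without Tbx5-/+ 1 it was 0.61 (exact permutation p adjusted over 3 quantities = 0.0857). With so few arrays, 0.0857 is the lowest adjusted p open to a quantity unless another of the 3 is also at its lowest p. Pdgfra minus Pdgfa alone could not have passed the threshold, so this p does not decide whether it changed. Within the slide that held numbers 6 and 7 the change was 0.65, and within the slide that held numbers 1 and 5 it was -0.71.

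Pdgfrb minus Pdgfb, the beta axis, was 6.09, 7.09, 6.06 and 6.89 in wild-type and 5.63, 7.10, 5.71 and 7.74 in Tbx5-/+. The change was 0.01 (exact permutation p = 0.971), and its direction turned when single arrays were left out. It was 0.31 without Tbx5-/+ 1 and 0.63 after scaling to the 75th percentile of the scanner's processed signals. Pdgfra minus Pdgfrb was -0.59, -1.67, -1.502 and -1.64 in wild-type and -2.05, -1.45, -1.62 and -1.43 in Tbx5-/+, a change of -0.29 (exact permutation p = 0.543), and of -0.15 without Tbx5-/+ 1. After adjustment over the 3 quantities each p was 1. In this comparison both arrays of number 1 stood outside the rest, wild-type 1 above and Tbx5-/+ 1 below.

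**Figure D4:**
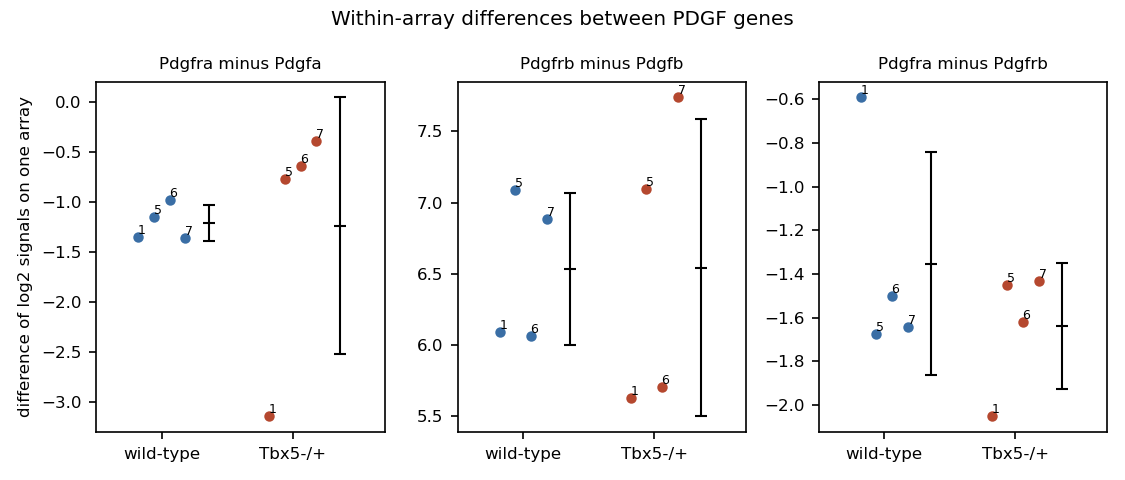
Difference of 2 log2 signals on the same array (y axis) for 3 pairs of PDGF genes in wild-type and Tbx5-/+ (x axis); points carry the embryo number, bars are mean ± SD, and the height of a panel's values depends on the probes. For Pdgfra minus Pdgfa, Tbx5-/+ 5, 6 and 7 lie above all wild-type arrays and Tbx5-/+ 1 lies at -3.14.

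The 2 Pdgfa probes were also compared with each other, a comparison added after their values were seen. The probe nearer the 3′ end exceeded the other by 3.89, 3.82, 3.71 and 3.75 in wild-type 1, 5, 6 and 7, and by 4.04, 4.09, 4.65 and 4.11 in Tbx5-/+. The groups did not overlap, and the change was 0.43, or 0.49 without Tbx5-/+ 1. It is given as a description with no test, since the pair was chosen after its values were seen. Over 3688 pairs of probes on one transcript, 5.42% had no overlap with the pair higher in Tbx5-/+, and the median change was 0.19. Among the 1106 pairs less than 500 bases apart, as the Pdgfa probes are (185 bases), these values were 4.70% and 0.10. After quantile normalization the Pdgfa change was 0.12 and the groups overlapped.

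Over the array as a whole, signal fell toward the 5′ end more steeply in Tbx5-/+ 5, 6 and 7 than in any wild-type array, but not in Tbx5-/+ 1. Averaged over 1821 pairs of probes at least 500 bases apart, the 3′ probe exceeded the 5′ probe by 0.99, 1.18, 1.29 and 1.16 in wild-type 1, 5, 6 and 7, and by 1.05, 1.46, 1.71 and 1.57 in Tbx5-/+. Tbx5-/+ 6 had both the steepest fall over the array and the widest Pdgfa pair. With this fall as a covariate the Pdgfa differences were -0.06 and 0.23 (limma adjusted p = 0.937 and 0.637), so the direction of the second turned. Other members moved away from 0 with it: Pdgfra to -0.89, the Pdgfc probes to -0.92 and -0.63 and Pdgfrb to -0.57, with limma adjusted p from 0.201 to 0.421.

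**Figure D5:**
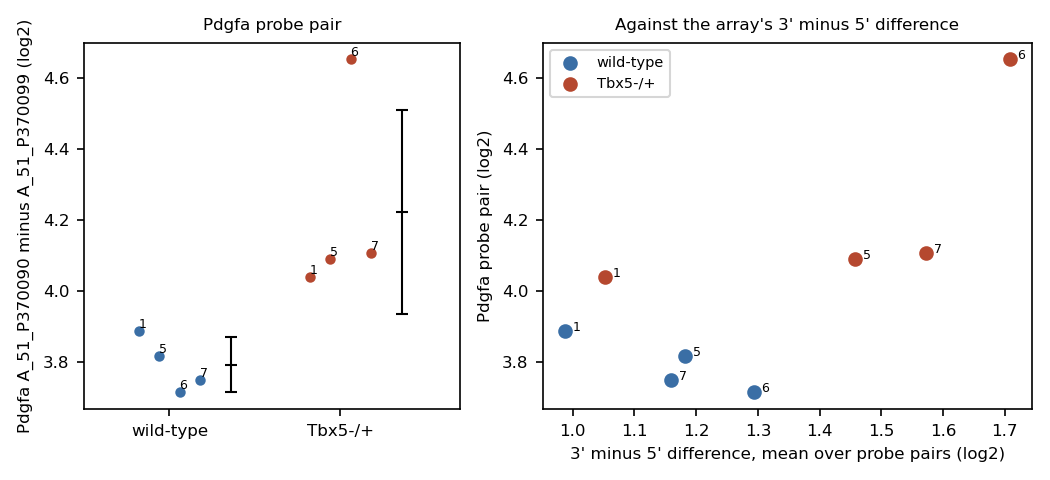
Left, the difference between the 2 Pdgfa probes on each array (log2, y axis) in wild-type and Tbx5-/+, with mean ± SD. Right, the same values against the mean difference between 3′ and 5′ probes of the array (log2, x axis); the Tbx5-/+ arrays lie above the wild-type arrays in the Pdgfa pair, and Tbx5-/+ 6 is highest on both axes.

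The corresponding change was 0.32 for Pdgfc and rested on wild-type 7, without which it was 0.11. For Pdgfd, whose 2 probes lie on different transcript records, it was -0.12.

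The wider pathway was described from 48 genes: proteases that process the ligands, adaptors and enzymes that bind the receptors, coreceptors and negative regulators, target genes, and related ligands and receptors of the VEGF, Kit and Csf1 families. Of these 43 were tested and 0 were called. At an unadjusted p of 0.05, 10 were lower and 1 was higher, where 18.5% of all probes were lower and 3.38% higher. The groups separated for 5 genes, all lower (Plau, Shc1, Nrp1, Vegfc and Kdr), where 8.98% of all probes separated in that direction. Plau was well above background in 0 Tbx5-/+ arrays and entered the test through wild-type alone. The median difference of the 43 was -0.25, against -0.19 over all probes. Cbl, Fos, Csf1r, Flt3 and Flt4 were not tested.

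The smallest p were those of vascular receptors. Nrp1, a coreceptor of VEGF, read 8.34, 8.26, 7.51 and 7.51 in Tbx5-/+ 1, 5, 6 and 7 and 9.55, 8.92, 8.95 and 9.13 in wild-type, a difference of -1.23 (limma adjusted p = 0.0958). Kdr, the main VEGF receptor of endothelium and a relative of the PDGF receptors, read 11.08, 10.89, 10.21 and 10.79 in Tbx5-/+ and 11.58, 12.02, 11.56 and 12.27 in wild-type, a difference of -1.12 (limma adjusted p = 0.0963). Without Tbx5-/+ 1 the differences were -1.38 for Nrp1 and -1.23 for Kdr. Neither group overlapped the other for these genes, but the 3 tested probes of Nrp1 disagreed, with differences from -1.51 to 0.09.

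Endothelial markers were read beside them. Of 10 tested, 0 were called and 4 separated the groups, all lower (Tek, Tie1, Kdr and Eng), where 8.98% of all probes separated in that direction. Cdh5 (0.14), Emcn (0.21) and Esam (0.01, listed as Esam1) were not below wild-type. Without Tbx5-/+ 1, Kdr alone was called, lower, where 12.2% of all probes were called lower. The summed signal of the 10 markers was 14.45 to 14.79 in Tbx5-/+ and 14.80 to 15.17 in wild-type. After each array was centered on its median the groups overlapped, at 4.74 to 5.19 and 4.74 to 5.12. The values of Pdgfb, the ligand made by endothelium, were interleaved between the groups. The part of endothelial content in the Kdr and Nrp1 differences was not tested.

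Inside the receptive cell, Plcg1, the phospholipase recruited to the activated receptor, had a difference of -1.62 (limma adjusted p = 0.172), although another of its probes was at 0.67. The probe at -1.62 was well above background in 3 Tbx5-/+ and 4 wild-type arrays and entered the test through wild-type alone. The Ras regulator Rasa1 (-0.56, 0.188), the adaptor Shc1 (-0.79, 0.202) and the kinase Src (-0.88, 0.205) were also below wild-type without passing. Among related ligands, Vegfb was at 1.06 (limma adjusted p = 0.199), with another probe at -0.51, and Vegfc at -0.54 (0.205). The 7 tested target genes, among them Egr1 (0.04), Myc (-0.35) and Dusp6 (-0.00451), had 0 members with an unadjusted p under 0.05.

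Calls in this pathway appeared under 4 other fits. Array weights gave 22 of 43 tested, where 49.9% of all probes in that fit were called. SAM gave 9 of the 19 genes that its filter kept, where 38.2% of all probes in that fit were called. With the embryo number as a block 5 genes passed (Kdr, Nrp1, Slc9a3r1, Crkl and Plcg1, all lower), where 11.1% of all probes were called. Without Tbx5-/+ 1, 7 passed, where 19.2% of all probes were called. These were Kdr, Nrp1, Plcg1, Crkl, Rasa1 and the protease St14, all lower, and Vegfb, higher. Slc9a3r1, Crkl and St14 were named after their values were seen.

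The genes most like each PDGF gene over the 8 arrays were found by Pearson's r, after each array had been centered on its median. For Pdgfra they were Nap1l2 (r = 0.97) and Shh (r = 0.97), whose signals were also low in Tbx5-/+ 1. For Pdgfa they were Noc2l (r = 0.99) and Rrs1 (r = 0.98), and for Pdgfc 9330151L19Rik and Rnf180 (r = 0.99 and 0.98). Pdgfb ran with Matk and Ptpdc1 (r = 0.99 and 0.98), Pdgfd with Elk4 and Cd55 (r = 0.99 for both) and Pdgfrb with Tnik and Slit2 (r = 0.99 for both). These are the highest values among 20028 probes over 8 arrays that share scaling, and they are a description only.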

How the data were processed

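RNA of 4 Tbx5-/+ and 4 wild-type pSHF samples was hybridized to 1-color Agilent whole-genome mouse arrays, with 2 slides and 4 arrays on each. The deposited files hold the scanner's spot intensity and background per the file headers, made with Agilent Feature Extraction (version 10.5.1.1 in the submitters' processing notes), and a table of log2 values that the authors had normalized by VSN. The number of arrays limits the precision. Mean signal minus median background was normalized here by VSN (programmed in R 4.3.3, 90% least trimmed, correlation with the deposited log2 values at least 0.9999), outlier spots were left out and spots of a probe were averaged. The study's methods use SAM on filtered probes. Here limma (version 3.58.1) was fitted without covariates to the 20028 probes that Feature Extraction marked well above background throughout 1 group or both, with Benjamini-Hochberg adjustment over all of them, two-sided, at 0.05, and SAM was an alternative. Single quantities were tested by an exact permutation test over the 70 assignments of 8 arrays. The VSN and limma steps were tested on simulated data. The permutation test and SAM, also programmed in R here, were not.

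The representative probe of a gene is its brightest tested probe. All PDGF probes, up to 8 pathway genes of smallest p and the 2 genes most like each member are named. The members and lists were chosen with earlier results of these data known. Embryo numbers were taken as pairing the samples: deviations of same-numbered arrays from their group means correlated at 0.44, 0.40, 0.59 and 0.14 for numbers 1, 5, 6 and 7, though Tbx5-/+ 7 correlated best with wild-type 6. Both groups were on both slides, always at different positions, so position and group cannot be told apart. The sources used here do not state that samples came from separate litters, so p-values measure the spread between these samples. Alternatives were 4 scalings, 3 probe filters, array weights, limma's trend, slide and embryo-number blocks, the 3′ to 5′ covariate and leaving out each array.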

Additional observations from a re-analysis of the deposited data

Results flagged for a closer look

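In 24 groups of 4 arrays examined for an array far from the others, 2 were found, where chance gives about 1 in 20 groups. In Tbx5-/+ 1 Pdgfra minus Pdgfa was -3.14, and the nearest Tbx5-/+ array was at -0.77. In wild-type 1 Pdgfra minus Pdgfrb was -0.59, and the nearest wild-type array was at -1.502.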

How the results depend on the processing

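The count of probes called moved from 0 to 310 with the study's interquartile filter, 10003 with array weights, 2218 with the embryo number as a replicate block and 3497 with SAM on the probes of that filter. It lay between 0 and 3844 when single arrays were left out. It was above 0 without Tbx5-/+ 1 (3844) and without wild-type 1 (211). For the pathway genes it was 22 with array weights, 5 with the replicate block, 9 of 19 tested with SAM and 0 to 7 with arrays left out, the 7 without Tbx5-/+ 1. The replicate block changed no call of a PDGF probe.

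Pdgfa passed with array weights on its 3′ probe (-0.77, limma adjusted p = 0.00378) and its other probe (-1.14, 0.00105), and with SAM on the latter alone (q = 0.0309). With array weights, which called 49.9% of all probes, Pdgfb (-0.81, limma adjusted p = 0.0141) and Pdgfd (0.40, 0.0492) passed too. With arrays left out the 3′ Pdgfa probe lay between -0.77 and -0.24, its other probe between -1.26 and -0.53, Pdgfb between -0.46 and 0.11, the first Pdgfc probe between -0.55 and -0.06, the brighter Pdgfd probe between 0.0034 and 0.40, Pdgfra between -0.64 and -0.16 and Pdgfrb between -0.43 and -0.01.

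Directions turned as follows, and the cause was not tested. After scaling to the 75th percentile Pdgfrb was 0.20 and the second Pdgfc probe 0.32. After quantile normalization Pdgfb was 0.0092, the second Pdgfc probe 0.042, Pdgfra minus Pdgfa 0.039, Pdgfrb minus Pdgfb -0.20 and the Pdgfd probe pair 0.017. After centering Pdgfb was 0.13, the second Pdgfc probe 0.26 and Pdgfrb 0.14. In the deposited values Pdgfra minus Pdgfa was 0.016 and Pdgfrb minus Pdgfb -0.0013. With array weights the second Pdgfc probe was 0.42, and with the 3′ to 5′ covariate the 3′ Pdgfa probe was 0.23 and the brighter Pdgfd probe -0.28. With the mean of a gene's probes Pdgfra minus Pdgfa was 0.19.

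With arrays left out, Pdgfra minus Pdgfa ranged from -0.31 to 0.61 (0.61 without Tbx5-/+ 1, 0.05 without wild-type 6), Pdgfrb minus Pdgfb from -0.39 to 0.31 (-0.18 without Tbx5-/+ 5, -0.39 without Tbx5-/+ 7, -0.14 without wild-type 1, -0.15 without wild-type 6) and Pdgfra minus Pdgfrb from -0.39 to -0.03. The second Pdgfc probe ranged from -0.22 to 0.28 (0.28 without Tbx5-/+ 1, 0.12 without wild-type 5), and Pdgfb was 0.11 without Tbx5-/+ 7. Every direction of Pdgfra and of the first Pdgfc probe held on every alternative that tested it, and neither passed on any. The size did not hold: the first Pdgfc probe shrank to -0.014 after scaling to the 75th percentile and to -0.056 after centering. SAM and its filter left out Pdgfra and both Pdgfd probes. Dim signal limited Pdgfb and Pdgfd, which were well above background on 2 and 3 of the 4 Tbx5-/+ arrays.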
